A study of Mus musculus with 57 samples.

Results

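SOX2 binding at 4 h was compared with SOX2 binding at 8 h of GATA6 induction in mouse embryonic stem (ES) cells. The comparison used 4 CUT&RUN peak lists, 2 replicates at each time, out of 57 samples in the series, of which 30 had a peak list. A region of a time point was a merged stretch of genome with a peak in both replicate lists, which gave 18207 regions at 4 h and 7086 regions at 8 h. A 4 h region that overlapped an 8 h region was called kept, a 4 h region with no peak in either 8 h list was called lost, and a 4 h region in between was called partly lost. An 8 h region with no peak in either 4 h list was called gained, and an 8 h region with a peak in 1 or both 4 h lists but no 4 h region was called partly gained.

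All the peak lists used here came from KH2 ES cells, a single line that carried 1 copy of a doxycycline-inducible transgene, TRE:GATA6-DsRed2, also in the uninduced cells. The 4 h and 8 h cells had received 1 µg/mL doxycycline in serum medium with LIF for those times, and about 100000 cells went into each sample. Cells of the 24 h and 48 h samples of other factors had doxycycline only for the first part of that time. For the rest they were kept in serum medium without doxycycline. SOX2 lists from 2 h of the same treatment and from uninduced cells (0 h), which were held in 2i and LIF, were used as earlier points, so the step from 0 h to 2 h also changed the medium. The cells were all of one induced population, and the binding of cells that did or did not respond to the transgene could not be told apart. Nothing in the labels says whether the replicates were separate cultures, so any p-value measures only the spread between these lists.

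SOX2 is a transcription factor of the HMG box family that holds the pluripotent state of ES cells, often by binding DNA next to the POU factor OCT4. The same factor later takes part in epiblast and neural development, and its level falls as cells turn to primitive endoderm (PrE), the extraembryonic layer that GATA6 specifies. GATA6 is a zinc finger factor that binds GATA sequences, and AP-1 factors (FOS and JUN proteins), which bind the palindrome searched for here, are induced by serum and MAP kinase signalling. CUT&RUN cuts DNA next to an antibody-bound factor, so a peak marks a place where fragments released near SOX2 piled up.

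The 3 strongest regions of each class are shown for the sequence matches compared below. Each window is a stretch of GRCm38, plus strand, centred on the summit of the strongest peak. Capitals mark CATTGT (SOX), GATAA (GATA) or TGANTCA (AP-1), on either strand. Regions with no nearest gene in reach are given by position.
Lost, chr10:55462054-55462254: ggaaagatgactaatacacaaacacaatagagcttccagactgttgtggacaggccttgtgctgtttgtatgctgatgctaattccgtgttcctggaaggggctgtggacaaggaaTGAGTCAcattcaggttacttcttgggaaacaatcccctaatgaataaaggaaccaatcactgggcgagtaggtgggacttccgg
Lost, in an intron at Fam78b, chr1:167020113-167020313: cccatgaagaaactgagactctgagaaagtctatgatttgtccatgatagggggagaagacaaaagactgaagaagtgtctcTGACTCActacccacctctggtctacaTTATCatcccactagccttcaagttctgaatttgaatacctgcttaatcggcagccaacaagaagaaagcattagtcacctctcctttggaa
Lost, chr2:143679628-143679828: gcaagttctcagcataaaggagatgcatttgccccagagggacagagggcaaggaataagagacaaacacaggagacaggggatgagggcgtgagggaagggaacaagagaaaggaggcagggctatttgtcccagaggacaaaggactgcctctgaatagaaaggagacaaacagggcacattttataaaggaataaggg
Kept, chr13:66711107-66711307: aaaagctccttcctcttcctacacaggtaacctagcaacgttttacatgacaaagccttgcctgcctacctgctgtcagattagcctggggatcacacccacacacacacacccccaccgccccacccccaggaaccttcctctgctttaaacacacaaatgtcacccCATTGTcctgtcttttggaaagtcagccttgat
Kept, chr4:8154492-8154692: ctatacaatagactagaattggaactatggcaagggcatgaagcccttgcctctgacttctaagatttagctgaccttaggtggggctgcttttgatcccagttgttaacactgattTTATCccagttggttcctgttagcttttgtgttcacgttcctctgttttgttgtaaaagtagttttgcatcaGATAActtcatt
Kept, chr12:65593661-65593861: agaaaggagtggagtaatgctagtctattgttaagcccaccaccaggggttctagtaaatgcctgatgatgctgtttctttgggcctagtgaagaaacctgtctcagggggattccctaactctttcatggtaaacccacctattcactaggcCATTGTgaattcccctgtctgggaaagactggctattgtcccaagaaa
Gained, in an intron at Nat8f3, chr6:85747814-85748014: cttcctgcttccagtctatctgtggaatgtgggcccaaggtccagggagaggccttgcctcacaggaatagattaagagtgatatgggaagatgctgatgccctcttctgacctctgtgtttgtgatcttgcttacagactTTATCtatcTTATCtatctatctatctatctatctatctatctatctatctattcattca
Gained, in an intron at Gm7271, chr5:76487817-76488017: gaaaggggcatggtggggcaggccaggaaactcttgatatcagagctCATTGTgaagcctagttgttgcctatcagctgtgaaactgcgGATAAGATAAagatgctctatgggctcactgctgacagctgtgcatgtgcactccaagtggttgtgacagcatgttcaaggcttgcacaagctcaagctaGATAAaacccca
Gained, near Med9, chr11:59940699-59940899: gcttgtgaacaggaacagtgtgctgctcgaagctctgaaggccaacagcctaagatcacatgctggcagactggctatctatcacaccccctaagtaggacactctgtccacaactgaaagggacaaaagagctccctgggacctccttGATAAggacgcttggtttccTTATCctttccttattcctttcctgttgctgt
Of the 3 lost windows, those on chromosome 10 and at Fam78b each held 1 AP-1 match, the window at Fam78b also held 1 GATA match, and that on chromosome 2 held no match to any of the motifs. Of the 3 kept windows, 2 held 1 SOX match each and that on chromosome 4 held 2 GATA matches. The gained windows at Nat8f3, Gm7271 and Med9 held 2, 3 and 2 GATA matches, and none of the 3 held an AP-1 match.

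The 8 h lists were shorter than the 4 h lists. The 4 h replicates held 45338 and 24615 peaks, and the 8 h replicates held 14053 and 11538. Every 8 h list was shorter than either 4 h list, and the geometric mean peak number at 8 h was 0.381 times that at 4 h. With 2 lists against 2, the exact permutation p of 0.333 (two-sided) is the smallest the design can give. The 4 h replicates differed from each other more than the 8 h replicates did, so list-wide measures were compared over the 11538 peaks with the lowest q-values of each list, the length of the shortest list.

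The median fold over background, the unit in which the peak caller gives peak height, was 12.6 and 8.52 in the 4 h replicates and 6.39 and 6.27 in the 8 h replicates at equal length. The median peak width was 547 and 379.5 bp at 4 h and 306 and 286 bp at 8 h. Peaks at 8 h were thus lower and narrower than those of either 4 h list. The share of peaks within 5 kb of the transcription start site (TSS) of a protein-coding gene, called proximal, was 21.7% and 20.7% at 4 h and 27.4% and 27.5% at 8 h. The share that overlapped a region of GATA6 at 2 h was 92.3% and 92.1% at 4 h and 85.1% and 86.6% at 8 h. In each of these measures the 8 h lists did not overlap the 4 h lists, again with an exact permutation p of 0.333. With the 0 h and 2 h lists added, all 8 SOX2 lists allow a p as low as 0.00952. By an exact permutation test on F, the proximal share and the GATA6 share differed between the 4 times (p = 0.00952 each, adjusted p = 0.019 over 4 measures), whereas width (p = 0.0667, adjusted p = 0.0889) and fold (p = 0.295) did not pass. That test compares all 4 times and does not single out 4 h against 8 h. When all peaks of each list were taken, the median fold was nearly equal at the 2 times (a log2 difference of 0.03), the GATA6 share was 14.9 points higher at 8 h rather than 6.33 lower, and the median widths of 326 and 282 bp at 4 h overlapped those of 282 and 286 bp at 8 h (log2 difference -0.09, exact permutation p = 1). The lower fold, smaller width and lower GATA6 share at 8 h were thus not seen over all peaks.

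**Figure D1:**
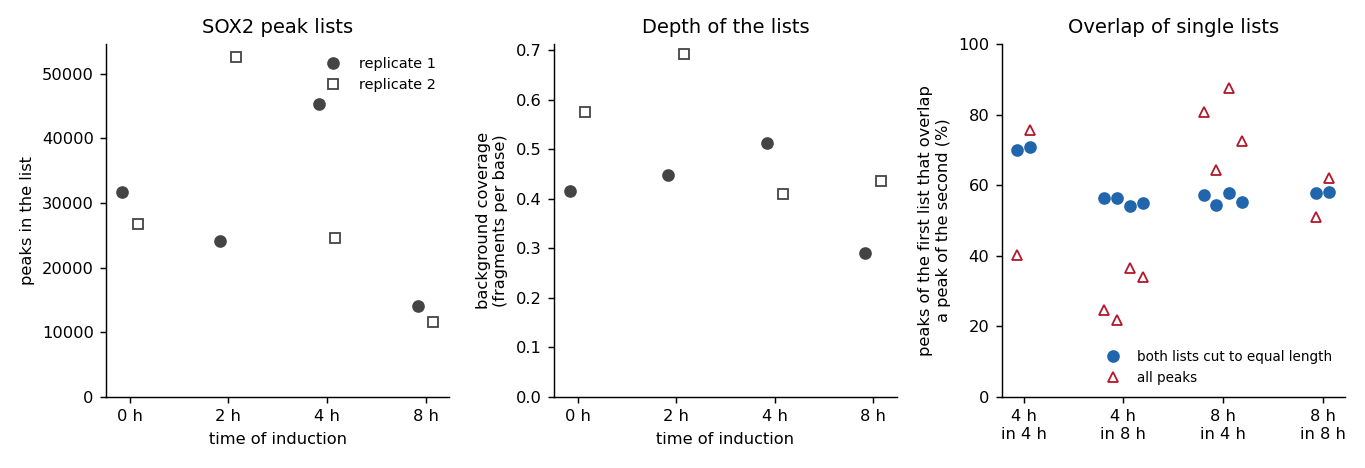
Left, peaks in each SOX2 list by time of induction, middle, background coverage (fragments per base) of each list, with filled circles for replicate 1 and open squares for replicate 2, right, share of a list’s peaks (%) that overlapped a peak of another list, over all peaks (open triangles) and at equal length (filled circles). The 8 h lists are the shortest, and at equal length the 4 h lists share about 70.0% of peaks with each other while the 8 h lists share 57.8% and 57.9%.

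Of the 18207 regions at 4 h, 6099 (33.5%) were kept at 8 h, 4573 (25.1%) were partly lost and 7535 (41.4%) were lost. Of the 7086 regions at 8 h, 6133 (86.6%) were kept, 778 (11.0%) were partly gained and 175 (2.47%) were gained. Most 8 h binding was therefore at places already bound at 4 h, and far more regions went than came. At equal list length there were 8076 regions at 4 h, of which 54.1% were kept and 21.8% lost, and 6630 at 8 h, of which 16.5% were gained. Of the 1094 regions called gained at equal length, 84.0% and 48.4% overlapped a peak in the full 4 h replicates 1 and 2, so most of them had a peak in the longer 4 h list below the equal-length limit.

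At equal length a list was also compared with its own replicate. The 4 h lists shared 70.0% and 70.8% of their peaks with each other, and the 8 h lists shared 57.8% and 57.9%. Between the times, 54.1% to 56.4% of a 4 h list's peaks lay in an 8 h list, and 54.3% to 57.7% of an 8 h list's peaks lay in a 4 h list. The overlap across times was thus close to the overlap of the 8 h replicates with each other and below that of the 4 h replicates. The preceding steps, classed by the same rule, lost less: from 0 h to 2 h 51.3% of regions were kept and 20.5% lost, and from 2 h to 4 h 65.4% were kept and 11.5% lost. With all 8 SOX2 lists at 11538 peaks, the shares kept were 47.7%, 66.6% and 54.1% and the shares lost 32.8%, 15.5% and 21.8% for the 3 steps in turn, so the step from 4 h to 8 h lay between the earlier ones on that scale. NANOG, a pluripotency factor mapped in the same experiment, kept 6.34% of its 4 h regions at 8 h and lost 74.8%, and at the 2253 peaks of its own shortest list, a length not comparable with that of SOX2, kept 19.8% and lost 47.8%.

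Regions that were kept had been stronger and wider at 4 h. Their median fold at 4 h was 13.9 and 9.26 in the 2 replicates, against 7.34 and 5.68 for lost regions. Their median width was 682 bp, against 435 bp for lost regions and 338 bp for gained regions. Gained regions had a median fold of 5.40 and 5.24 at 8 h, below the 7.75 and 7.66 of kept regions at that time. Regions that came and regions that went were thus both weaker than those held at both times.

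When the 4 h regions were ordered by summit coverage and divided into 5 groups of like size, 6.32% of the weakest group and 76.7% of the strongest group were kept. Lost regions made up 73.4% of the weakest group and 7.85% of the strongest. The background coverage of a list, a measure of its depth that can be recovered from the fold and p-value of its peaks, was 0.514 and 0.409 at 4 h and 0.290 and 0.436 at 8 h. The 8 h replicate 1 was the shallowest of the 4 lists and the 8 h replicate 2 lay within the 4 h range. After the 4 h pileups of lost regions were scaled to the depth of an 8 h list, 83.5% and 87.2% of them (from the 4 h replicates 1 and 2) stood at or above the lowest pileup called in the 8 h replicate 1, and 95.7% and 96.7% did so for the 8 h replicate 2. Far fewer, 32.2% and 19.1% for the 8 h replicate 1 and 51.6% and 34.7% for the 8 h replicate 2, stood at or above the median pileup of its peaks. Pileup that a list did not call was not measured.

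Lost regions lay farther from genes than kept or gained regions. Their median distance to a TSS was 26146 bp, against 21871 bp for kept and 14204 bp for gained regions. Promoters (within 1 kb of a TSS) held 10.2% of lost, 14.9% of kept and 21.7% of gained regions. Introns held 42.7% of lost and 40.3% of kept regions, and intergenic sequence held 43.1% and 41.9%. Of the 2367 promoter regions at 4 h, 38.4% were kept and 32.5% lost, while more than 50 kb from a TSS 31.8% were kept and 44.7% lost. In the weakest coverage group promoters held 11.8% of lost and 22.2% of kept regions, and in the strongest group 4.90% and 10.4%. In each of the 5 groups promoters were more common among kept than among lost regions. Among chromosomes, X kept the smallest share of its 4 h regions (23.2%) and chromosome 3 the largest (36.5%).

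Kept and lost regions differed more in GATA6 binding after 2 h than in SOX2 binding at 0 h. The GATA6 lists recorded for 4, 8 and 48 h hold peaks named for 48, 4 and 8 h samples, so both times are given here. In the lists recorded for 48 h and named 8 h, GATA6 peaks lay at 83.1% and 85.5% of kept regions, 59.2% and 63.5% of partly lost regions and 30.0% and 31.7% of lost regions. At gained regions they lay at 73.1% and 76.0%. In the lists recorded for 8 h and named 4 h, the shares were 95.0% and 96.1% at kept and 66.5% and 72.9% at lost regions. In the 2 h lists, GATA6 lay at 98.5% and 96.4% of kept and 90.3% and 81.6% of lost regions, so most regions of both classes had GATA6 at 2 h. Regions with a GATA6 2 h peak in both lists were kept in 36.6% of cases and the 2224 without in 10.9%. In the lists recorded for 4 h and named 48 h, which are the shortest of the 3 pairs, peaks lay at 25.2% and 29.4% of kept and 2.27% and 3.62% of lost regions. Regions with a peak in both GATA6 lists recorded for 48 h were kept in 53.7% of cases and regions without in 13.4%.

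**Figure D2:**
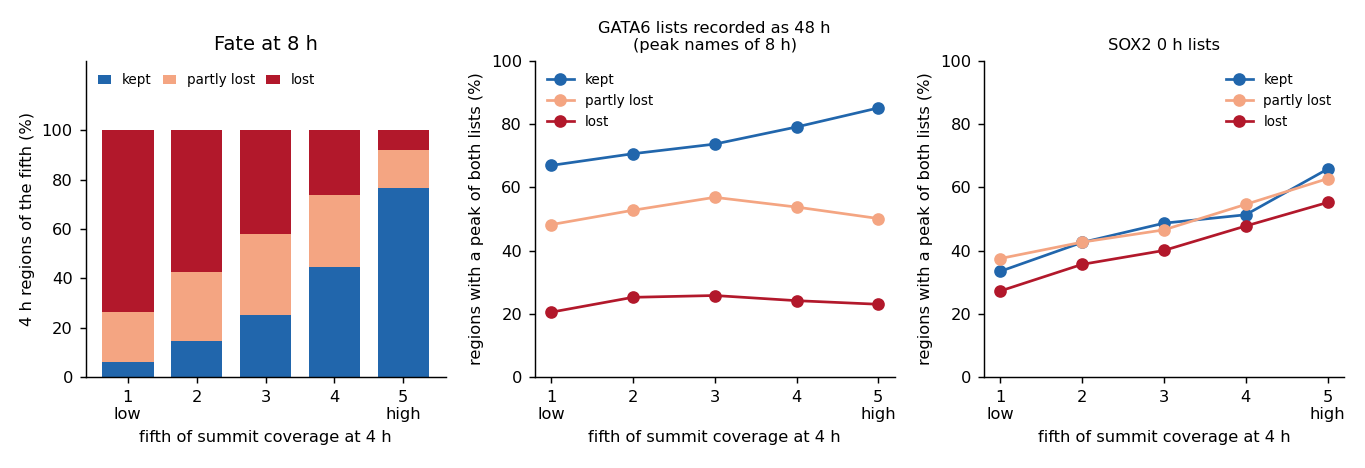
Left, share (%) of 4 h regions kept, partly lost and lost at 8 h in 5 groups of summit coverage at 4 h, from low to high. Middle and right, share (%) of the regions of each class with a peak in both GATA6 lists recorded for 48 h (named 8 h) and in both SOX2 0 h lists: the GATA6 lines of kept and lost regions stay apart in every group (67.0% against 20.6% in the lowest, 85.1% against 23.1% in the highest), and the SOX2 0 h lines lie close together.

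The gap in GATA6 was present at each strength and was wider at the strongest regions. In the weakest of the 5 coverage groups both GATA6 lists recorded for 48 h held a peak at 67.0% of kept and 20.6% of lost regions, and in the strongest group at 85.1% and 23.1%. Among lost regions the share thus stayed between 20.6% and 25.8% in the 5 groups. The earlier SOX2 state differed less: both 0 h SOX2 lists held a peak at 33.5% of kept and 27.3% of lost regions in the weakest group, and at 65.8% and 55.2% in the strongest. SOX17 and GATA4, PrE factors mapped at 24 h, lay at 68.4% and 76.6% (SOX17) and 32.9% and 23.7% (GATA4) of kept regions. At lost regions they lay at 22.8% and 31.5% (SOX17) and 4.76% and 2.20% (GATA4). NANOG at 4 h lay at 66.9% and 65.3% of kept and 23.3% and 21.8% of lost regions, and NANOG at 8 h at 17.0% and 13.4% of kept and 1.80% and 1.22% of lost regions.

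The share of regions kept differed with SOX2 binding at earlier times. Of the 6736 4 h regions that were SOX2 regions at both 0 h and 2 h, 46.5% were kept. Of the 3509 that were regions at 2 h but had no peak at 0 h, 33.5% were kept. Of the 282 that were regions at 0 h but had no peak at 2 h, 10.3% were kept and 61.0% lost. Of the 1583 with no SOX2 peak at either earlier time, 21.6% were kept and 52.4% were lost. The other 6097 regions (33.5%) fell in none of these 4 sets, and 23.3% of them were kept and 50.5% lost. The median 4 h coverage of these 4 sets in turn was 40.9, 33.1, 19.5 and 19.5 in replicate 1 and 31.8, 26.9, 17.1 and 19.5 in replicate 2, so sets kept more often were also stronger. At like strength the 2 h state made little difference: in the weakest of the 5 coverage groups 5.20% of regions with SOX2 in both 2 h lists and 6.90% of those without were kept, and in the strongest 77.0% and 73.0%. Of the 175 gained regions, 62 had a peak in a SOX2 list of 0 h or 2 h, and 113 had none in any earlier SOX2 list.

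The sequence at the summits differed between the classes. The AP-1 palindrome lay in 27.6% of lost, 14.8% of kept and 5.14% of gained windows. It lay in 6.03% of windows 10 kb away and in 4.04% of windows at protein-coding TSSs. GATAA lay in 37.4% of lost, 50.9% of kept and 53.1% of gained windows, against 26.8% and 13.3% of those 2 backgrounds. Lost regions were thus richer in AP-1 and poorer in GATA sequence than kept regions. CATTGT, the SOX sequence, lay in 22.5% of lost, 23.7% of kept and 14.3% of gained windows, against 11.3% and 6.48%, and the sign of that kept-to-lost gap changed with list length and window. The joint SOX and POU sequence TTGTNATGC lay in 2.34% of lost and 2.67% of kept windows, and the octamer ATGCAAAT in 3.76% and 3.64%, against 0.45% and 1.41% at 10 kb. TCAAGGTCA (ESRRB, an orphan nuclear receptor of naive cells) lay in 1.34% of lost and 1.11% of kept windows, and CNAGGNGGC (CTCF, an insulator protein) in 3.26% and 3.59%. A match is a run of letters and not a bound site.

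The AP-1 gap was present in each of the 5 coverage groups, and its size depended on the lists: the kept share minus the lost share was -12.8 points with all 4 lists, -5.57 without the SOX2 4 h replicate 1, -4.26 without the SOX2 4 h replicate 2 and -2.28 with regions of either list. In the weakest of the 5 coverage groups 21.4% of lost and 7.83% of kept windows held the palindrome, and in the strongest 43.0% and 16.6%. Regions with AP-1 and no GATA match (2203) were kept in 19.1% of cases and lost in 59.1%. Regions with GATA and no AP-1 match (6209) were kept in 42.2% and lost in 32.9%. These 2 sets had the same median coverage in the 4 h replicate 1 (31.2) and 24.4 and 26.9 in replicate 2, and GATA6 at 2 h lay at 86.0% and 94.2% of them. Both 0 h SOX2 lists held a peak at 29.8% of the first set and 34.0% of the second, and both GATA6 lists recorded for 48 h at 26.7% and 70.8%. Regions with neither match, the largest set (8120), were kept in 31.7% of cases and lost in 42.0%, and those with both (1675) in 29.0% and 46.3%.

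Over whole lists at equal length, AP-1 windows made up 6.53% and 6.69% of peaks at 0 h, 25.7% and 27.6% at 2 h, 23.1% and 22.3% at 4 h and 12.7% and 12.8% at 8 h. The share was thus low in 2i, high after 2 h in serum with doxycycline, and at 8 h below both 4 h lists. GATA windows made up 20.1% and 21.3%, 37.2% and 36.7%, 45.0% and 46.2%, and 47.2% and 48.7% at the same 4 times. By the exact permutation test over 8 lists, AP-1 and GATA shares differed between times (p = 0.00952 each, adjusted p = 0.0143 over 3 motifs), and so did the SOX share (adjusted p = 0.0286). Between 4 h and 8 h alone, p was 0.333 for each at equal length, the smallest possible. These sizes depended on list length. With every peak counted, the AP-1 share fell by 5.54 points from 4 h to 8 h, against 9.92 at equal length. The GATA share then rose more, from 37.6% (replicate 1) and 40.7% (replicate 2) to 44.8% and 48.7%. The SOX shares of the 2 times overlapped on that count (18.3% and 20.3%, then 18.2% and 20.7%). Serum, doxycycline and time rose together from 0 h, and their parts in these shares cannot be told apart.

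**Figure D3:**
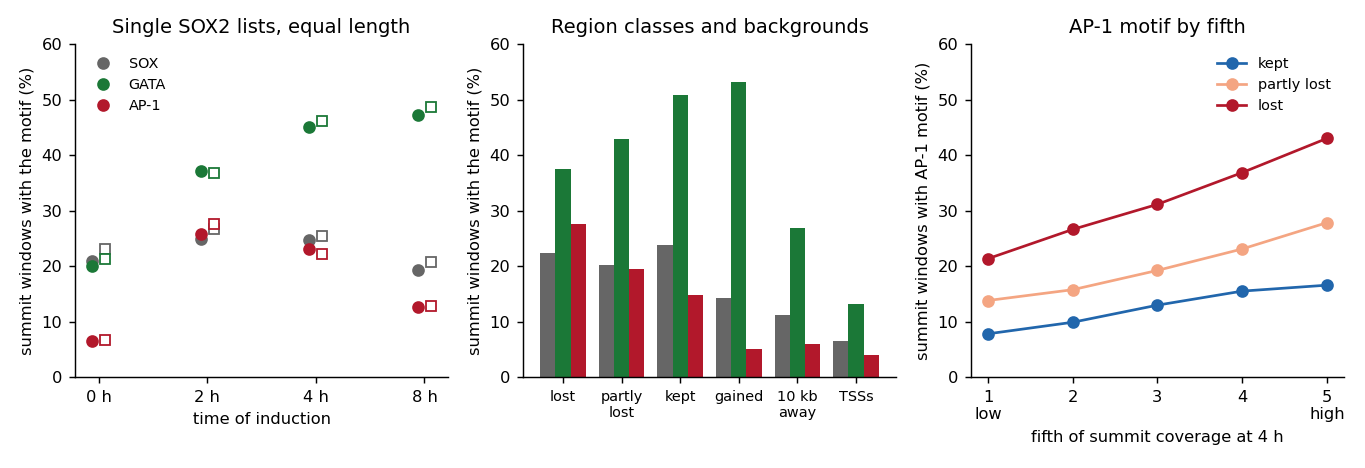
Left, share (%) of summit windows with a SOX, GATA or AP-1 match in each SOX2 list at equal length by time (filled circles replicate 1, open squares replicate 2). Middle, the same share by region class, at windows 10 kb away and at TSSs. Right, share (%) with an AP-1 match by coverage group at 4 h, where lost regions lie above kept regions in each group (43.0% against 16.6% in the highest).

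The strongest lost regions had been robust peaks. The region in an intron at Fam78b (chr1:167019924-167020782) had folds of 24.6 and 36.3 at 2 h and 27.6 and 27.4 at 4 h, with no peak at 0 h or 8 h in any list. The region near Pofut2, an enzyme that adds fucose to proteins, had folds of 6.22 and 6.75 at 0 h, 18.9 and 28.1 at 2 h and 29.7 and 16.7 at 4 h. At the promoter of Bmpr1b, a BMP receptor (0.139 kb from the TSS), folds were 10.6 and 17.1 at 0 h, 15.2 and 24.8 at 2 h and 29.1 and 17.0 at 4 h. All 3 regions were thus called in both lists at 2 h and at 4 h and in neither at 8 h. The intronic regions at Auts2 and Tulp4 had 4 h folds of 29.7 and 15.6 and of 33.7 and 10.6. Of the 10 strongest lost regions, that at Fam78b and those at chr13:70187277-70188294 and chr14:78420207-78420739 had peaks in both GATA6 lists recorded for 48 h. The other lost regions named here did not. In the strongest coverage group 23.1% of lost regions had such peaks.

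The strongest kept regions were bound at every time. The region in an intron of Nt5e, the CD73 ectonucleotidase (chr9:88332235-88333112), had folds of 32.1 and 46.4 at 0 h, 42.5 and 85.3 at 2 h, 84.9 and 53.3 at 4 h and 39.6 and 43.5 at 8 h. The region near Ssx2ip, which encodes a centrosome and junction protein, had folds of 19.4 and 12.9, 24.9 and 74.1, 76.2 and 35.6, and 29.8 and 31.1 at those times. At Nt5e and at Ssx2ip, both 8 h folds were below both 4 h folds, but these regions were picked for their high 4 h fold. Over all kept regions the median fold also went from 13.9 and 9.26 at 4 h to 7.75 and 7.66 at 8 h. The other 8 of the 10 strongest kept regions lay more than 50 kb from a TSS. All 10 had peaks in both GATA6 lists recorded for 48 h, in both SOX17 lists and in both NANOG lists at 4 h. Over all kept regions of the strongest coverage group the shares were 85.1%, 75.7% and 70.4%.

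The strongest gained regions were weak beside these. The intronic region at Nat8f3 (chr6:85747801-85748085) had folds of 10.8 and 11.5 at 8 h, and its window printed above runs into a tandem repeat of tatc. That at Gm7271 had folds of 10.7 and 9.20, and that near Med9, a Mediator subunit, 10.8 and 7.39. None of these 3 had a peak in any SOX2 list of 0, 2 or 4 h, and all 3 had peaks in both GATA6 lists recorded for 48 h. Over all gained regions 73.1% and 76.0% had a peak in those GATA6 lists. At the promoter of Ube2o, a ubiquitin-conjugating enzyme, the 8 h folds of 7.47 and 9.11 stood beside 4.71 and 5.04 at 0 h, with no peak at 2 h or 4 h and no GATA6 peak at 2 h. Regions near Emx2, a homeobox gene, and Braf, a MAP kinase pathway kinase, had 8 h folds of 7.75 and 8.25 and of 7.69 and 7.91.

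**Figure D4:**
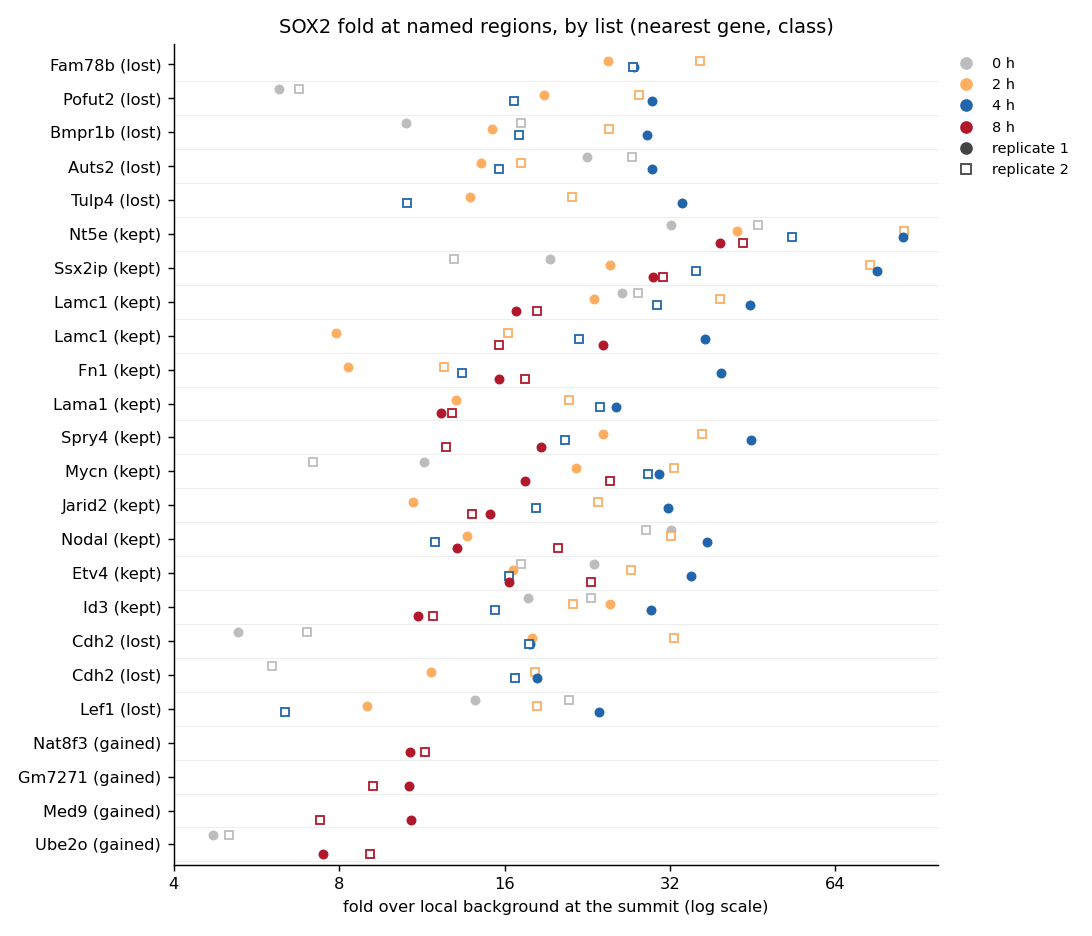
SOX2 fold over local background (log axis) at regions named by nearest gene and class, with a color for each time, filled circles for replicate 1 and open squares for replicate 2. A missing point is a list with no peak there. Lost regions have no 8 h points, gained regions have no 4 h points, and the Fam78b region has 4 points, 2 each at 2 h and 4 h.

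Genes were assigned to a region when they were the nearest protein-coding gene within 50 kb. Of 21829 protein-coding genes, 32.6% were nearest to a 4 h region, 17.4% to a lost region, 14.5% to a kept region and 0.6% to a gained region. Near naive and core pluripotency genes, 32 of 35 genes (91.4%) had a 4 h region, 24 had a kept and 16 a lost region. Of their 99 regions at 4 h, 45.5% were kept and 25.3% lost, against 34.3% and 39.7% over all 12194 regions with a gene in reach. Near primitive endoderm genes, 27 of 34 genes had a 4 h region, and of their 68 regions 55.9% were kept and 27.9% lost. Both lists thus kept more of their regions than the genome did. Their regions were also stronger at 4 h. The median folds in the 2 replicates were 9.89 and 7.63 near pluripotency genes and 9.86 and 7.48 near primitive endoderm genes. Over all genes they were 9.25 and 6.69. The lists were not compared at like strength, so the part of strength in the kept share was not tested.

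SOX2 at 0 h was less common at regions near primitive endoderm genes than near pluripotency genes. Of 38 kept regions near primitive endoderm genes, 28 (73.7%) had no SOX2 peak at 0 h, against 12 of 45 (26.7%) near pluripotency genes and 31.7% over all genes. Lost regions near primitive endoderm genes were alike in this (13 of 19, 68.4%), and so were the few kept regions near neural genes (7 of 8, 87.5%). Lamc1, a laminin chain of the basement membrane that PrE lays down, had 9 regions, of which 5 were kept and 3 lost. The strongest, chr1:153376350-153377236, was kept and had folds of 26.2 and 28.0 at 0 h, 44.7 and 30.3 at 4 h and 16.8 and 18.3 at 8 h. The kept region at chr1:153358541-153359108 had no peak at 0 h and folds of 7.88 and 16.2 at 2 h, 37.0 and 21.9 at 4 h and 24.2 and 15.6 at 8 h. At Fn1, fibronectin, the region 28.3 kb from the TSS had no peak at 0 h and folds of 8.29 and 12.4, 39.6 and 13.4, and 15.6 and 17.4. A weaker kept region at Fn1 (chr1:71673431-71673860) had folds of 35.3 and 35.5 at 0 h, 14.4 and 11.3 at 4 h and 5.81 and 4.46 at 8 h. Pdgfra, a receptor that marks PrE, had 5 kept regions, of which 4 had no peak at 0 h. Of these, that in an intron 33.9 kb from the TSS had folds of 10.6 and 7.92 at 2 h, 20.6 and 9.04 at 4 h and 14.2 and 15.6 at 8 h. The 2 kept regions near Gata6 itself, in introns of a neighbouring gene, and the 2 kept near Gata4, had no peak in either 0 h list. Sox17 and Sox7, other PrE factors, each had a single region, which was lost.

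Among pluripotency genes, the region upstream of Nanog (chr6:122702197-122703225, 4.45 kb from the TSS) had folds of 40.7 and 41.6 at 0 h, 21.7 and 21.9 at 2 h, 19.2 and 12.0 at 4 h and 9.66 and 16.9 at 8 h. It was kept, and its folds at 2 h, 4 h and 8 h all lay below those at 0 h. The region upstream of Nodal, a TGF-beta ligand, had folds of 37.3 and 11.9 at 4 h and 13.1 and 20.0 at 8 h. Klf5 and Lin28a kept all of their 4 and 3 regions, and Mycn kept 5 of 8. Klf4, a naive state factor, lost both of its regions, which were weak at 4 h (5.29 and 5.35, and 5.95 and 3.62). At Sox2 itself 1 of 2 regions was lost (9.12 and 4.21 at 4 h) and the other kept a peak in the 8 h replicate 2 only. Pou5f1, which encodes OCT4, kept 1 of 3 regions and lost none outright.

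The other gene lists gave a mixed picture. Near formative and primed epiblast genes 33.3% of 30 regions were kept and 46.7% lost, and Otx2, a factor of formative cells, kept 3 of 4 regions while Cdh2, N-cadherin, lost 4 of 6. Near MAPK feedback and serum response genes 44.0% of 50 regions were kept and 24.0% lost, and the promoter region of Etv4, a target of FGF signalling, had folds of 35.0 and 16.3 at 4 h and 16.3 and 23.0 at 8 h. Near neural genes 28.6% of 28 regions were kept and 53.6% lost, among them both regions at Olig2 and the single region at Pax6, which encode neural progenitor factors. Cdh2 with its 6 regions is a member of this list too. Near trophectoderm genes 21.7% of 23 regions were kept and 39.1% lost. Near SOX and POU genes, a list that shares members such as Sox2 and Pou5f1 with the lists above, 21.4% of 28 were kept and 32.1% lost. Blood and muscle genes, which ES cells do not use, had 5 regions in all, and 5 of 15 annotated genes (33.3%) had a region, close to the 32.6% of all genes. For the genes the study linked to PrE and to epiblast in blastocyst cells, 42.4% of 637 and 40.9% of 413 regions were kept. Of the kept regions, 136 of 270 (50.4%) near the PrE set and 22 of 169 near the epiblast set had no SOX2 peak at 0 h. These differences are given as counts over regions that share genes and lists, with no test.

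**Figure D5:**
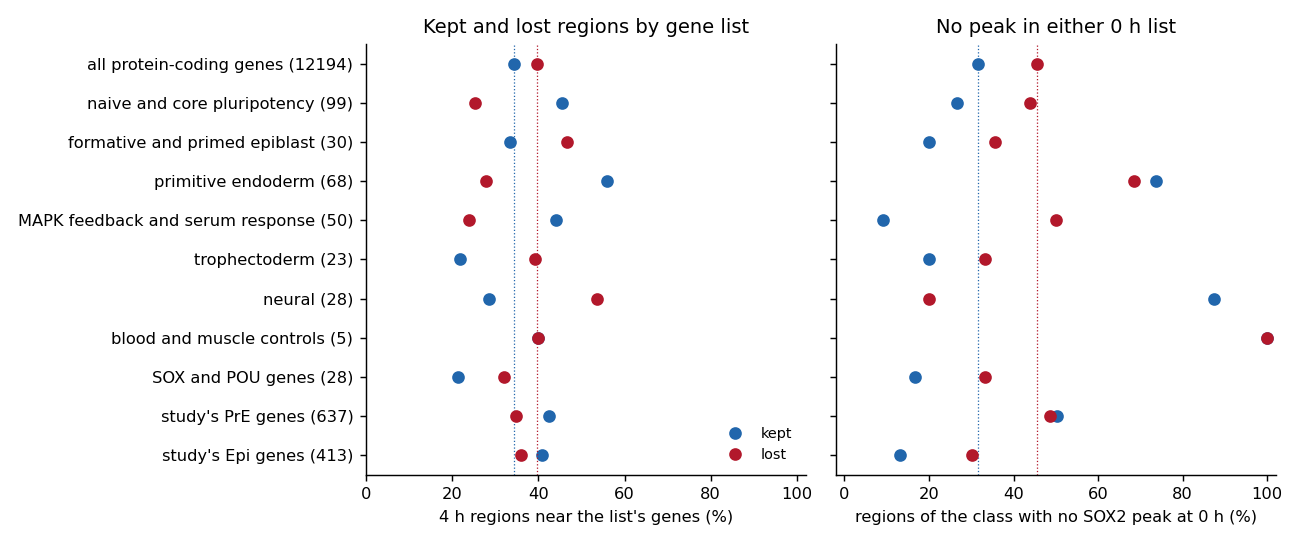
Left, share (%) of 4 h regions near the genes of each list that were kept (blue) or lost (red), with the number of regions in parentheses. Right, share (%) of those kept or lost regions with no peak in either SOX2 0 h list. Dotted lines mark all protein-coding genes. Kept regions near primitive endoderm genes lie at 73.7% on the right, against 31.7% for all genes.

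Kept regions were also compared in height, and few were called as changed. Over 6081 kept regions with a peak in all 4 lists, log2 summit coverage was centred on each list's median, which removed a median shift of -0.35 (8 h against 4 h), and compared by limma. At an adjusted p under 0.05, 12 regions (0.197%) were higher and 25 (0.411%) lower at 8 h. At an unadjusted p under 0.05 (limma) there were 998 of the 6081. Scaled by background coverage in place of the median, the counts were 0 higher and 85 lower, and with the replicate number as a block 1 and 3. Leaving out any 1 of the 4 lists left 0 in either direction, so each of these calls rests on all 4 lists. Both 8 h lists lay above both 4 h lists in 1473 regions (24.2%) and below in 1359 (22.3%), a balance that centring sets. On the background scale the counts were 354 above and 2451 below.

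The largest fall among those called was at an intronic region of Adam12, a metalloprotease (coverage 193 and 169 at 4 h, 31.1 and 38.9 at 8 h, log2 change -1.99 ± 0.29, SE, limma adjusted p = 0.00861). A region in reach of Tcf7l2, a Wnt effector, went from 171 and 105 to 51.8 and 32.1, and a region whose nearest gene was Sp3, a zinc finger transcription factor, went from 181 and 147 to 48.3 and 29.8. At both, the 8 h lists lay far below the 4 h lists. Among those called higher, none of which was called on the background scale, a region whose nearest gene was Tbx3, a naive state T-box factor, went from 33.1 and 19.5 to 62.2 and 61.9 (log2 change 1.67 ± 0.32, SE, limma adjusted p = 0.0352), and a region near Dkk1, a Wnt inhibitor, from 15.6 and 26.9 to 82.9 and 38.9. Promoters made up 903 of the 6081 regions, 5 of the 12 called higher and none of the 25 called lower. Those called lower had 4 h coverage of at least 51.3 in each replicate. Those called higher had at most 33.1, apart from a region whose nearest gene was Cntnap5b (183 and 164). On the centred scale the median change was -0.13 at kept regions with an AP-1 match and 0.06 without, 0.15 at promoters and 0.00 elsewhere, and -0.20 where both NANOG 0 h lists had a peak and 0.13 elsewhere. The medians of those groups at 4 h also differed from those of the other kept regions. In the 2 replicates the gaps were 0.11 and 0.09 for AP-1, -0.31 and -0.21 for promoters, and 0.48 and 0.44 for NANOG at 0 h. The part of those starting levels in the change was not tested.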

How the data were processed

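SOX2 CUT&RUN was analysed in KH2 ES cells at 4 h and 8 h of GATA6 induction, with 2 lists per time, and the 0 h and 2 h SOX2 lists and those of the other factors served as comparison. The authors aligned reads with Bowtie2 to mm10 (GRCm38), removed blacklisted reads, kept duplicates and called narrow peaks with MACS in each library against a rabbit anti-rabbit control. The deposited lists hold 10 columns: peak position, fold over background (a ratio), −log10 p-value, −log10 q-value and summit. All lists had been thresholded by the authors at a q-value of 0.05. There were no read counts, so depth was taken as the background coverage that reproduces a list's fold and p-values. It limits precision as a pileup of 4 to 5 fragments was the lowest called at 8 h.

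Peaks on the mitochondrial genome (2 per list) were left out. Peaks of both replicates were merged, and regions compared by an overlap of at least 1 bp. Genes and TSSs came from GENCODE vM21, and sequence from GRCm38.p6. Windows of equal length around summits were searched for motifs on both strands, and the motif matches can overlap. Named genes were the nearest protein-coding genes, within 50 kb, of the 10 strongest regions of each class (by mean fold) and members of fixed gene lists with a region, strongest first. Genes named for a change in coverage are nearest genes at any distance and were chosen after their values were seen. List measures were tested by two-sided exact permutation over lists, and coverage of kept regions by limma 3.58.1 in R 4.3.3 with Benjamini-Hochberg adjustment, centred on each list's median. Python 3.11.15, numpy 2.4.6, pandas 2.3.3, scipy 1.17.1 and matplotlib 3.10.9 were used, and the scripts were tested on simulated data. No test was run over regions, which are not replicates.

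The members and lists were chosen with earlier results of these data known, and the AP-1, GATA, later GATA6 and limma comparisons were added after the data had been seen. The GATA6 lists recorded for 4, 8 and 48 h carry peak names of 48, 4 and 8 h samples, and the record was followed. Alternatives were list length, threshold, overlap, summit windows, replicate rule, motif window, TSS set, pairing and leaving out each list. Samples without a peak list were not used here.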

Additional observations from a re-analysis of the deposited data

How the results depend on the processing

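Of 171 values under alternatives for 24 results, 86 were classed as same, 78 as moved, 6 as reversed and 1 as weaker. For values over regions, same meant a move smaller than the spread between single lists. For list measures it meant only the same sign, for tests over all 4 times the same side of 0.05, and for limma counts a similar count. Values classed as moved include limma counts that fell to 0. Values below are kept against lost regions unless stated, in percentage points except for fold and width, which are ratios. As reported, fold was 1.72, width 1.57, proximal share 4.27, GATA6 2 h share 16.0, SOX2 0 h share 19.9, SOX motif 1.27, AP-1 motif -12.8, GATA motif 13.5 and GATA6 recorded for 48 h 56.2. The SOX motif gap turned to -3.03 at equal length, -0.371 without the SOX2 8 h replicate 2 and -0.398 in a shorter motif window. Width turned to 0.964 with 200 bp windows around summits, which fix the width. The median fold of a list turned to 0.0286 (log2) and the GATA6 2 h share of a list to 14.9 with all peaks, where the test over all 4 times gave p = 0.114 (exact permutation) for that share.

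At equal length, 54.1% of 4 h regions were kept, 21.8% lost and 16.5% of 8 h regions gained, with fold 1.32, proximal share 6.16, GATA6 2 h 6.42, SOX2 0 h 13.8, AP-1 -21.6, GATA 16.0 and later GATA6 58.5. With −log10 q of at least 5, proximal share was 2.23, GATA6 2 h 8.99, SOX2 0 h 12.1, AP-1 -13.6, GATA 15.4 and later GATA6 54.1. With regions of either list, 71.4% were lost and 18.6% gained, width was 1.99, GATA6 2 h 41.4, SOX2 0 h 27.2, SOX 2.94, AP-1 -2.28 and later GATA6 49.0. GATA was 14.5 with 200 bp windows, AP-1 -7.70 and GATA 9.02 in shorter motif windows, and GATA6 2 h 6.39 with GATA6 peaks of either list. The causes were not tested.

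Leaving out each list in turn, 15.1% to 48.0% of 4 h regions were kept, 52.0% to 68.7% lost and 3.46% to 17.2% of 8 h regions gained. Fold ranged from 1.47 to 2.49, width 1.40 to 2.25, proximal share 2.21 to 4.55, GATA6 2 h 11.7 to 44.8, SOX2 0 h 15.2 to 32.9, SOX -0.371 to 5.29, AP-1 -9.97 to -4.26, GATA 9.12 to 17.3 and later GATA6 41.3 to 63.9. The gained share was 2.47% with all lists, 12.7% without the SOX2 4 h replicate 1 and 17.2% without the SOX2 8 h replicate 2. For list measures at 8 h against 4 h the ranges were -1.83 to -0.95 (log2 peak number), -0.99 to -0.43 (log2 fold), -0.89 to -0.36 (log2 width), 5.75 to 6.81 (proximal share), -7.07 to -5.58 (GATA6 2 h share) and -10.3 to -9.50 (AP-1 share).

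The replicates share only a number across times. With the replicate block the list differences were the same (log2 peak number -1.39), with p = 0.5 by exact sign flips, the smallest that 2 pairs allow. The limma counts of 12 higher and 25 lower became 1 and 3 with the replicate block, 0 and 85 scaled by background coverage, and 0 and 0 without any 1 list. Depth limits the weakest regions: a 4 h region near the lowest called pileup and a region just below that call at 8 h cannot be told apart.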

Other observations

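The AP-1 palindrome was also more common at 2 h in the other lists, by the same search over up to 11538 peaks of each list. It lay in 8.68% and 8.91% of NANOG windows at 0 h, 20.5% and 18.9% at 2 h, 12.2% and 11.6% at 4 h and 7.26% and 8.70% at 8 h, where the NANOG lists hold 5506 and 2253 peaks. In GATA6 lists it lay in 15.5% and 16.5% of windows at 2 h and 12.8% and 13.9% in the lists named 4 h (recorded for 8 h). It lay in 10.4% and 10.3% in those named 8 h (recorded for 48 h). In the shorter lists named 48 h (recorded for 4 h) it lay in 7.49% and 7.15%. SOX17 windows at 24 h held it in 7.40% and 7.59% and GATA4 windows in 6.81% and 6.92%, close to the 6.53% and 6.69% of SOX2 at 0 h. In each factor with lists at 2 h and 8 h both 2 h lists thus lay above both 8 h lists. For GATA6 this held with times taken from the peak names and with times taken from the record. No test was run on these shares.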
